A study of Homo sapiens with 3 samples.

Results

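The bone morphogenetic protein (BMP) pathway and the ID genes that it switches on were measured as mRNA in 3 cultured hepatocellular carcinoma (HCC) lines, with 1 sequencing library each. The set holds 10 genes chosen by name, and all 10 were found among the 16149 genes listed in at least 1 library. They are the ligands BMP2, BMP4 and BMP7, the secreted antagonist GREM1, the type II receptor BMPR2, the inhibitory SMAD6 and SMAD7, and the transcriptional inhibitors ID1, ID2 and ID3. The parent is the human HCC line HCCLM3 by its label, which gives it a low metastatic ability, whereas the methods of the study name HCCLM3-R, a derivative that carries red fluorescent protein, and call its metastatic potential high. Subclone 1, here the lung subclone, is labelled as more metastatic and specific to the lung. Subclone 2, here the dual subclone, is labelled as able to reach both the lung and the celiac lymph node. In the study each monoclone was grown from 1 cell by limiting dilution of cells recovered from lung or lymph node foci in nude mice, so a subclone stands for 1 clone. Which monoclones were sequenced is not given in the sources used here. All 3 lines were kept in DMEM, and the labels name no treatment.

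BMPs are secreted dimers that bring type I and type II serine/threonine kinase receptors together. The type II receptor activates the type I receptor, which phosphorylates SMAD1, SMAD5 and SMAD9. These enter the nucleus with SMAD4, where ID genes, SMAD6 and SMAD7 are among the best known direct targets, and SMAD6 and SMAD7 in turn damp the signal. ID proteins have a helix-loop-helix domain without a DNA-binding region and block E proteins and other partners. In the liver the pathway is best known for BMP6 and hepcidin (HAMP) in iron balance.

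The libraries held 4488825 reads in the parent, 4609696 in the lung subclone and 4725150 in the dual subclone, as read from the deposited RPKM (reads scaled to gene length and to the total reads of the library). Intervals below are 95% exact counting intervals on the reads, and no cell line had a replicate, so no difference between cell lines was tested and no p-value was computed. These intervals compare libraries and do not hold the variation between cultures. Of 12 hepatocyte markers 10, 10 and 11 were listed in the parent, the lung subclone and the dual subclone. They summed to 44.2, 149 and 132 RPKM, with APOA2 at 0 throughout. ALB was highest in the dual subclone, at 2.46, 49.5 and 68.8 RPKM, as were APOB and AFP. TF, at 5.71, 30.3 and 5.88 RPKM, was highest in the lung subclone. So were FGB, at 1.66, 14.5 and 5.6 RPKM, FGA and FGG. The intervals of APOH overlapped in all libraries. The 5 epithelial markers were all listed, at 2747 to 3032 RPKM in sum and almost all of it keratin, while EPCAM had 1 to 3 reads. Of 10 fibroblast markers 5 or 6 were listed, with sums of 15.7, 31.2 and 24.3 RPKM, and PDGFRA, PDGFRB, FAP and POSTN were at 0 in every library. LUM was the largest part of these sums, at 10.1, 24.0 and 21.0 RPKM, and DCN was also lowest in the parent. COL3A1 went the other way, at 4.42, 2.21 and 0.463 RPKM, and COL1A1 had 9, 11 and 1 reads. Of 6 endothelial markers 4 or 5 were listed, with sums of 5.11, 11.9 and 7.60 RPKM, and CLDN5 was at 0. Leukocyte markers summed to 76.7, 114 and 101 RPKM, nearly all of it CD68, with CD3E at 0. The part of these markers in the results below was not tested. In a culture, fewer cells that express a gene and less of its RNA per cell cannot be told apart.

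The 3 ID genes were abundant in all lines, the ligands BMP2 and BMP4 intermediate, and BMP7 and GREM1 near the limit of detection. BMP4 showed the largest difference of the 10 genes, being lower in both subclones than in the parent. BMP2 did not differ detectably between the parent and the lung subclone and was higher in the dual subclone. SMAD7 and ID1 were modestly higher in both subclones, while the log2 ratios of ID2 and ID3 lay between -0.15 and 0.15.

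**Figure D1:**
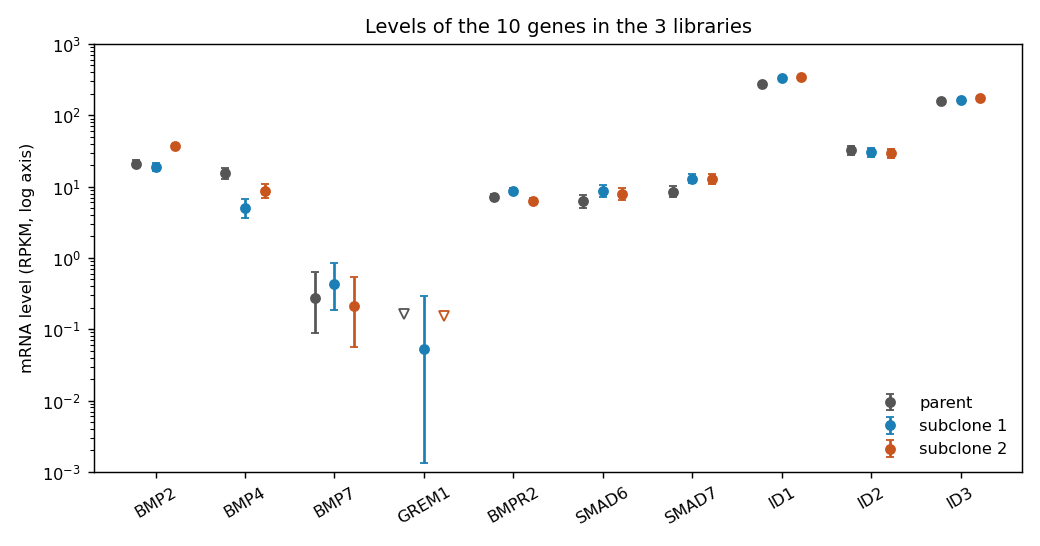
mRNA level in RPKM (log axis) of the 10 genes in the parent, the lung subclone (subclone 1) and the dual subclone (subclone 2), 1 library each. Bars are 95% Poisson intervals, and open triangles mark the level of 3 reads where GREM1 had none. ID1 and ID3 lie at 158 RPKM or more in each library, and BMP4 is the gene whose 3 values lie farthest apart among those above 1 RPKM.

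BMP2 and BMP4 are closely related ligands that bind the same type I receptors. BMP2, Entrez gene 650, had 20.9 RPKM in the parent (296 reads, 95% interval 18.6 to 23.5), 18.9 RPKM in the lung subclone (275 reads, 16.8 to 21.3) and 36.8 RPKM in the dual subclone (548 reads, 33.8 to 40.0). The dual subclone was thus the high library, with an interval above those of the other two, which overlapped. Its level was 1.76-fold that of the parent (1.52 to 2.03) and 1.94-fold that of the lung subclone (1.68 to 2.26). The lung subclone over the parent was 0.905 (0.765 to 1.07), a difference not detectable at this depth.

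BMP4, Entrez gene 652, had 15.5 RPKM in the parent (136 reads, 13.0 to 18.3), 4.99 RPKM in the lung subclone (45 reads, 3.64 to 6.67) and 8.65 RPKM in the dual subclone (80 reads, 6.86 to 10.8). The parent was highest, the lung subclone lowest, and the 3 intervals did not overlap. The parent exceeded the lung subclone by 3.10-fold (2.20 to 4.45) and the dual subclone by 1.79-fold (1.35 to 2.39). The dual subclone in turn exceeded the lung subclone by 1.73-fold (1.19 to 2.56). Both comparisons with the parent use the same parent library. On the log2 scale of RPKM + 0.1, the ratios over the parent were -1.61 in the lung subclone and -0.83 in the dual subclone, at percentiles 0.686 and 3.38 of the 11370 genes averaging 1 RPKM or more.

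BMP7, a ligand best known from kidney and bone development, was barely detected, with 5 reads in the parent, 8 in the lung subclone and 4 in the dual subclone. Its levels of 0.275, 0.429 and 0.209 RPKM had widely overlapping intervals, and the ratio of the dual over the lung subclone could lie anywhere from 0.107 to 1.82. GREM1 encodes gremlin 1, which binds BMP2 and BMP4 outside the cell and keeps them from their receptors. It was listed in the lung subclone alone, at 0.0523 RPKM from 1 read. The count of 0 in the parent and the dual subclone allows levels up to 0.161 and 0.153 RPKM, taking 3 reads as the limit, while the upper ends of the exact 95% intervals used for the other genes are 0.198 and 0.188 RPKM, so the libraries could not be ordered for this gene.

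The proportion of BMP2 to BMP4 differed between the lines. Per length, BMP2 mRNA was 1.35 times BMP4 mRNA in the parent (1.10 to 1.67), 3.80 times in the lung subclone (2.76 to 5.33) and 4.26 times in the dual subclone (3.36 to 5.45). The ratio was higher in both subclones than the interval in the parent. In the lung subclone only BMP4 differed from the parent beyond counting error, and in the dual subclone both ligands did. The 3 ligands BMP2, BMP4 and BMP7 summed to 36.7 RPKM in the parent, 24.4 RPKM in the lung subclone and 45.7 RPKM in the dual subclone.

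BMP6, a ligand outside the 10 genes, was also lower in both subclones than in the parent. It had 12.8 RPKM in the parent (179 reads), 3.56 RPKM in the lung subclone (51 reads) and 2.86 RPKM in the dual subclone (42 reads), with folds over the parent of 0.277 (0.199 to 0.381) and 0.223 (0.155 to 0.313). With BMP6 included, the ligand sums were 49.5, 27.9 and 48.5 RPKM. BMP4 and BMP6 together made up 57.2% of this sum in the parent, 30.6% in the lung subclone and 23.7% in the dual subclone. The parent and the dual subclone thus had nearly the same summed ligand mRNA, of which BMP2 held 42.3% in the parent and 75.8% in the dual subclone.

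**Figure D2:**
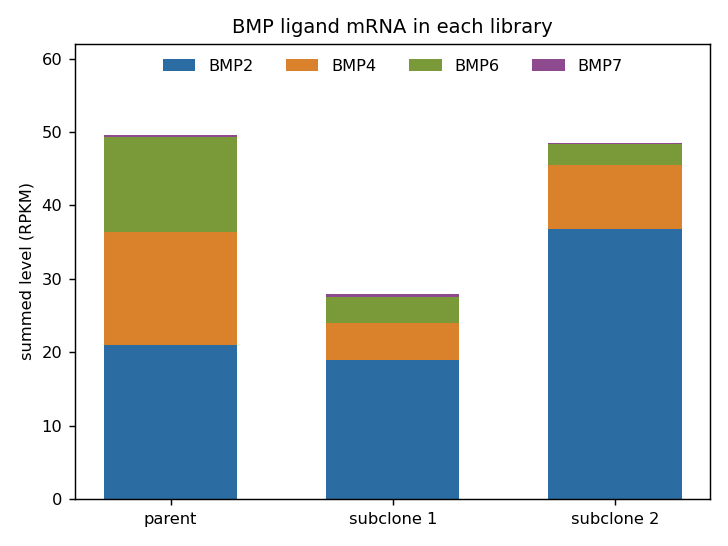
Summed RPKM of the BMP ligands in each library, stacked by gene, for BMP2, BMP4, BMP6 and BMP7. The BMP2 part is largest in the dual subclone (36.8 RPKM), and the BMP4 and BMP6 parts together make 28.3, 8.55 and 11.5 RPKM in the parent, the lung subclone and the dual subclone.

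BMPR2, Entrez gene 659, encodes the type II receptor that is specific to BMPs. It had 7.17 RPKM in the parent (389 reads, 6.48 to 7.92), 8.69 RPKM in the lung subclone (484 reads, 7.93 to 9.50) and 6.32 RPKM in the dual subclone (361 reads, 5.69 to 7.01). The lung subclone was the high library, at 1.21-fold the parent (1.06 to 1.39). The dual subclone was 0.728 times the lung subclone (0.633 to 0.836), and its ratio to the parent of 0.882 (0.762 to 1.02) was within counting error. The 10 measured genes nearest to BMPR2 on chromosome 2 had a median log2 ratio of -0.15 in the lung subclone and -0.43 in the dual subclone over the parent.

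Among the type I receptors BMPR1A had 9.69, 10.3 and 10.3 RPKM in the parent, the lung subclone and the dual subclone. BMPR1B had 4.33, 4.10 and 4.53 RPKM, and neither receptor differed between libraries beyond counting error. ACVR1, the type I receptor also called ALK2, was the exception, with 20.0 RPKM in the parent, 16.6 RPKM in the lung subclone and 12.8 RPKM in the dual subclone. Its ratio over the parent was 0.829 (0.693 to 0.990) in the lung subclone and 0.639 (0.528 to 0.773) in the dual subclone. ACVRL1, a receptor of endothelial cells, had 1 read in the dual subclone and none elsewhere.

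SMAD6 and SMAD7 are the inhibitory SMADs, SMAD6 acting mainly on BMP receptors and SMAD7 on both BMP and TGF-beta receptors. SMAD6, Entrez gene 4091, had 6.20 RPKM in the parent (84 reads, 4.95 to 7.68), 8.70 RPKM in the lung subclone (121 reads, 7.22 to 10.4) and 7.92 RPKM in the dual subclone (113 reads, 6.53 to 9.53). The intervals overlapped, and the fold over the parent was 1.40 (1.05 to 1.88) in the lung subclone and 1.28 (0.955 to 1.72) in the dual subclone, where the difference could not be told from counting error. SMAD7, Entrez gene 4092, had 8.51 RPKM in the parent (118 reads, 7.05 to 10.2), 12.9 RPKM in the lung subclone (183 reads, 11.1 to 14.9) and 12.8 RPKM in the dual subclone (187 reads, 11.0 to 14.8). Both subclones lay above the parent without overlap, at 1.51-fold (1.19 to 1.92) and 1.51-fold (1.19 to 1.91), and their ratio to each other was 0.997 (0.809 to 1.23).

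A SMAD-binding palindrome is spelled GTCTAGAC. Within 250 bases upstream of annotated RefSeq starts (GRCh38.p14), on either strand, it was present in 0.182% of 35116 promoters and, of the 8 genes of this set with an entry, before SMAD6. The stretch is shown because SMAD6 is among the pathway's own targets. It lies at chr15:66702210-66702235 on the plus strand, with the palindrome in capitals from 12 to 5 bases before the start, and overlaps an exon of SMAD6 in the GENCODE annotation.
SMAD6 upstream site: ggagccgccaaagtGTCTAGACtggc
The match is of letters only. GGCGCC, a GC-rich SMAD motif, was present in at least 1 promoter entry of BMP4, BMPR2 and GREM1, and in 16.4% of all 35116 promoters. The 8 genes had 13 entries, so the count of genes and the share of promoters are in unlike units.

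ID1 was the most abundant of the 10 genes in every library and is among the genes on the study's real-time PCR primer list. ID1, Entrez gene 3397, had 270 RPKM in the parent (1498 reads, 257 to 284), 331 RPKM in the lung subclone (1881 reads, 316 to 346) and 342 RPKM in the dual subclone (1997 reads, 328 to 358). Both subclones lay above the parent without overlap of the intervals, but by small folds of 1.22 (1.14 to 1.31) and 1.27 (1.18 to 1.36). These are at percentiles 74.9 and 76.1 of all genes, inside the bulk of the distribution. The subclones did not differ detectably, with a ratio of 1.04 (0.972 to 1.10). ID1 exceeded more than 98.6% of the genes listed in each library.

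ID2, Entrez gene 3398, had 32.4 RPKM in the parent, 30.3 RPKM in the lung subclone and 29.3 RPKM in the dual subclone, from 204, 196 and 194 reads. The intervals overlapped throughout, with ratios over the parent of 0.936 (0.765 to 1.14) and 0.903 (0.738 to 1.11). ID3, Entrez gene 3399, had 158 RPKM in the parent (912 reads, 148 to 168), 162 RPKM in the lung subclone (962 reads, 152 to 173) and 175 RPKM in the dual subclone (1063 reads, 164 to 185). The ratio of the dual subclone over the parent was 1.11 (1.01 to 1.21), and that of the lung subclone over the parent was 1.03 (0.937 to 1.13), which turned to a log2 ratio of -0.094 when the libraries were divided by ACTB. For the dual subclone the lower end of the ID3 interval, 0.018 on the log2 scale, lay below the median of all 11370 genes, 0.037. The summed level of the 3 ID genes was 461, 523 and 546 RPKM, of which ID1 made up 58.7%, 63.2% and 62.7%. ID4, the remaining gene of the family, had 1 read in the parent and none in the subclones.

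The 3 ID genes are shown here over the coding stretch that starts at the ID1 forward primer, since near-identical stretches bear on how reads are assigned among them. Bases common to all 3 are in capitals, 77 of 120, and each stretch lies in 1 exon of GENCODE 29 (GRCh38), namely chr20:31605580-31605699 on the plus strand for ID1, chr2:8682268-8682387 on the plus strand for ID2 and chr1:23559190-23559309 on the minus strand for ID3.
ID1: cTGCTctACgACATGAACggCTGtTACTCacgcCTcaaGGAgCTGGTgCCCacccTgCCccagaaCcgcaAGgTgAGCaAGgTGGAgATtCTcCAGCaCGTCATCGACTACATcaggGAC
ID2: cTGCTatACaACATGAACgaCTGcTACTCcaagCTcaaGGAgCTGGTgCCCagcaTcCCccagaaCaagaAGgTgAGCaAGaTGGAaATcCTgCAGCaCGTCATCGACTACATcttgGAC
ID3: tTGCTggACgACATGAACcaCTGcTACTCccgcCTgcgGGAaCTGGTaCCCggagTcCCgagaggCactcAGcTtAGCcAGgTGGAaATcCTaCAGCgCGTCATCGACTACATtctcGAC
ID1 and ID2 had 83.3% of these bases in common, ID1 and ID3 68.3%, and ID2 and ID3 71.7%. The longest run of identical bases between their principal transcripts was 21 for ID1 and ID2, 15 for ID1 and ID3 and 19 for ID2 and ID3. The real-time PCR primers for ID1 are given below with their place on chromosome 20.
ID1 forward: ctgctctacgacatgaacgg
ID1 reverse: gaaggtccctgatgtagtcgat
The forward primer lies at chr20:31605580-31605599 and the reverse primer at chr20:31605682-31605703, both in the coding part of exon 1, for a product of 124 bases. Each differed from ID2 transcripts by at least 3 bases and from ID3 transcripts by at least 5. The product lies within 1 exon.

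E proteins are the dimer partners that ID proteins occupy. TCF3 had 26.3 RPKM in the parent, 21.3 RPKM in the lung subclone and 22.3 RPKM in the dual subclone, and TCF12 had 17.0, 14.2 and 14.3 RPKM. Both were lower in the subclones by folds whose intervals excluded 1. For TCF3 the folds were 0.813 (0.714 to 0.924) and 0.851 (0.750 to 0.965), and for TCF12 0.836 (0.717 to 0.974) and 0.839 (0.720 to 0.977). These small folds lay at percentiles 20.5 to 24.2 of all genes. TCF4 had 1, 5 and 10 reads. The summed ID mRNA was 10.6 times the summed E protein mRNA in the parent, 14.7 times in the lung subclone and 14.8 times in the dual subclone, per length. With 1 library per line this difference was not tested.

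**Figure D3:**
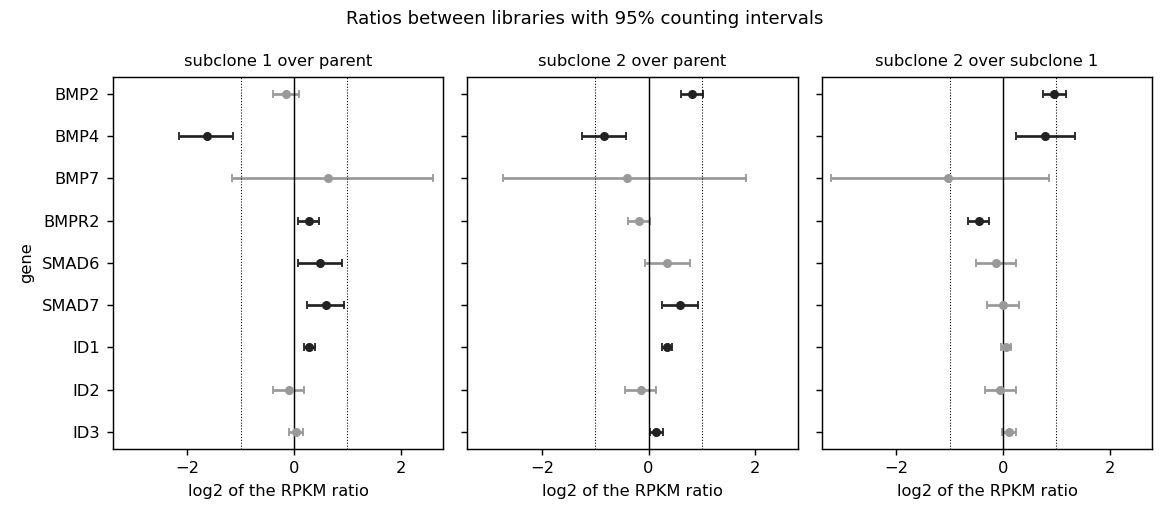
log2 of the RPKM ratio between libraries for 9 of the 10 genes, with 95% exact intervals for counting error. Black marks have intervals that exclude 0, grey marks do not, dotted lines are at 2-fold, and GREM1 is left out for want of reads. BMP4 in the lung subclone over the parent is the ratio whose whole interval lies beyond 2-fold.

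Within a library, the order of levels was ID1, ID3 and then ID2 in the parent and in the lung subclone, while in the dual subclone BMP2 stood above ID2 by 1.26-fold (1.07 to 1.49). SMAD7 and BMPR2 did not differ beyond counting error in the parent, nor BMPR2 and SMAD6, with ratios of 1.19 (0.958 to 1.46) and 1.16 (0.911 to 1.48). In the lung subclone the neighbours that could not be ordered were SMAD6 and BMPR2, and in the dual subclone they were BMP4 and SMAD6. BMP4 stood above BMPR2 in the parent and in the dual subclone and below it in the lung subclone.

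Differences of 2-fold or more among the 10 genes were counted beside the shares over all genes. BMP7 and GREM1 fell short of a mean RPKM of 1, and the other 8 passed. Of these, none was at least 2-fold higher in the lung subclone than in the parent, against 4.9% of the 11370 genes, and 1 of them, BMP4, was at least 2-fold lower, against 1.82%. None of the 8 was at least 2-fold higher (5.33% of all genes) or lower (2.16%) in the dual subclone than in the parent. The same held for the dual over the lung subclone, where 1.42% of all genes lay 2-fold or more above and 1.39% as far below. With 8 genes, such shares leave little to be counted.

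At 1.5-fold, SMAD7 was higher in the lung subclone than in the parent (11.6% of all genes) and BMP4 lower (7.46%). In the dual subclone BMP2 was higher than in the parent (12.7%) and BMP4 lower (7.3%), while SMAD7, at 0.58 on the log2 scale with the pseudocount, fell just short. Between the subclones BMP2 and BMP4 were higher in the dual subclone (4.75%) and none of the 8 was lower (4.11%). The median log2 ratio of the 8 genes was 0.16 in the lung subclone and 0.24 in the dual subclone over the parent, beside 0.0043 and 0.037 for all 11370 genes. The middle part of all genes, from the 25th to the 75th percentile, ran from -0.24 to 0.29 in the lung subclone and from -0.22 to 0.32 in the dual subclone, and ID1, ID2, ID3 and BMPR2 lay within it in both, apart from ID1 in the dual subclone.

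**Figure D4:**
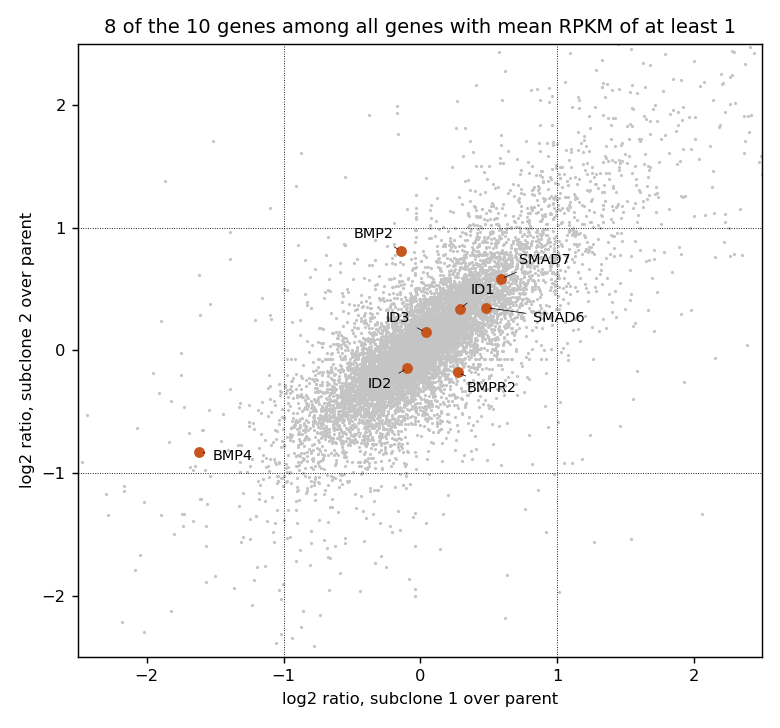
log2 ratio over the parent in the lung subclone (horizontal) and the dual subclone (vertical) for the 11370 genes averaging 1 RPKM or more, both over the same parent library, with 8 of the 10 genes marked. Dotted lines are at 2-fold, and 174 genes lie outside the drawn range. BMP4 lies at -1.61 and -0.83, the lowest of the marked genes on both axes, and BMP2 is the marked gene farthest from the diagonal.

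The genes nearest to BMP4 in this pattern, by distance in the 2 log2 ratios over the parent among 8210 other genes averaging 5 RPKM or more, were RASL10B, MOSC1 and C3orf31, at distances of 0.117, 0.136 and 0.152. RASL10B went from 8.46 RPKM in the parent to 2.63 in the lung subclone and 4.35 in the dual subclone. This likeness rests on 3 libraries that share the parent. Of the 11370 genes, 3.82% were at least 1.5-fold lower in both subclones, and BMP4 was the gene of this set among them.

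None of the chromosomal neighbours of BMP4 had a ratio as low. BMP4 lies at chr14:53949736-53956891 (RefSeq, GRCh38.p14), and the 10 nearest measured genes, 5 on each side, had a median log2 ratio over the parent of -0.03 in the lung subclone and -0.09 in the dual subclone, with lowest values of -0.74 and -0.53. BMP2 lies at chr20:6767686-6780246, and its 10 neighbours had medians of -0.12 in the lung subclone and -0.11 in the dual subclone, the highest in the dual subclone being 0.15. ID1 lies on the same chromosome at chr20:31605289-31606510, with neighbour medians of -0.07 and -0.01.

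The wider pathway was described with 59 further genes, of which 47 were listed in at least 1 library and 27 passed the filter. In the lung subclone over the parent, 1 of the 27 was at least 2-fold higher and 2 lower, beside 4.9% and 1.82% of all 11370 genes. The dual subclone against the parent gave 2 higher and 4 lower, beside 5.33% and 2.16%. In the dual over the lung subclone, none was higher and 3 were lower, beside 1.42% and 1.39%. Both counts of lower genes in the dual subclone include HAMP, which had at most 6 reads in any library. The list was chosen with earlier results of these data known. The medians of the 27 log2 ratios were -0.11, -0.05 and 0.05. The transducers, which carry the signal to the nucleus, had SMAD1 at 8.60, 7.24 and 8.86 RPKM, SMAD5 at 6.84, 7.46 and 8.62 RPKM and SMAD4 at 6.08, 5.63 and 7.01 RPKM in the parent, the lung subclone and the dual subclone. None of these reached 1.5-fold, but the interval excluded 1 for SMAD5 in the dual subclone over the parent, at 1.26-fold (1.05 to 1.51), and for SMAD4 between the subclones, at 1.25-fold (1.04 to 1.49). SMAD9, below the filter, had 9 reads in the parent and 2 in each subclone, with intervals over the parent that included 1.

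Of the 6 further genes past 2-fold, BMP6, ENG, SOST, FSTL3 and HAMP encode secreted or membrane proteins and HEY1 a nuclear one. ENG, endoglin, a co-receptor for BMP9 and TGF-beta best known from endothelium, went from 0.627 RPKM in the parent (9 reads) to 14.6 RPKM in the lung subclone (215 reads) and 2.98 RPKM in the dual subclone (45 reads). It was 23.3-fold the parent in the lung subclone (12.0 to 51.6) and 4.75-fold in the dual subclone (2.29 to 11.1). Of the endothelial markers, PECAM1 was also highest in the lung subclone, at 9.81 RPKM beside 3.33 in the parent and 4.46 in the dual subclone, whereas KDR was highest in the dual subclone (1.36, 1.93 and 3.08 RPKM in the parent, the lung subclone and the dual subclone) and TEK in the parent (8, 2 and 1 reads). CDH5 had 1 read in the lung subclone and none elsewhere, and VWF had 1 or 2 reads in each library. SOST, sclerostin, an antagonist known chiefly from Wnt signalling, had 16.8, 7.57 and 0.365 RPKM in the parent, the lung subclone and the dual subclone. FSTL3, a follistatin-like antagonist of activins and BMPs, had 14.5, 19.2 and 32.6 RPKM, and its fold over the parent was 2.25 in the dual subclone (1.87 to 2.72).

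Of the 15 antagonists in the wider list, 4 passed the filter, namely SOST, FSTL3, BAMBI and TWSG1. BAMBI, a pseudoreceptor that damps BMP and TGF-beta signals at the membrane, was abundant, with 82.6 RPKM in the parent, 88.6 RPKM in the lung subclone and 73.2 RPKM in the dual subclone. Its ratio over the parent was 1.07 in the lung subclone, with an interval that included 1, and 0.886 (0.792 to 0.992) in the dual subclone. TWSG1, a secreted BMP-binding protein, had 21.3, 18.5 and 21.0 RPKM and did not differ between libraries beyond counting error. NOG, CHRD, CHRDL2, CER1, SOSTDC1 and BMPER were not listed in any library, and CHRDL1, FST, FSTL1 and NBL1 had at most 3 reads in each. Of the target genes, HEY1, a repressor also induced by Notch, had 17.2 RPKM in the parent, 11.4 RPKM in the lung subclone and 8.44 RPKM in the dual subclone, with folds over the parent of 0.665 (0.436 to 1.01) and 0.491 (0.307 to 0.769). Only the second was beyond counting error, for reads set on a length of 777 bases. HAMP, the hepcidin gene that BMP6 induces in liver, rested on 3 reads in the parent, 6 in the lung subclone and 1 in the dual subclone. These are too few to order the libraries for HAMP. The other target genes past the filter, ATOH8 and MSX1, were not lower in either subclone. ATOH8 had 4.36, 8.16 and 4.97 RPKM in the parent, the lung subclone and the dual subclone, and its reads could not be set. MSX1 had 6.55, 7.94 and 8.07 RPKM, with intervals that included 1 in each comparison.

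**Figure D5:**
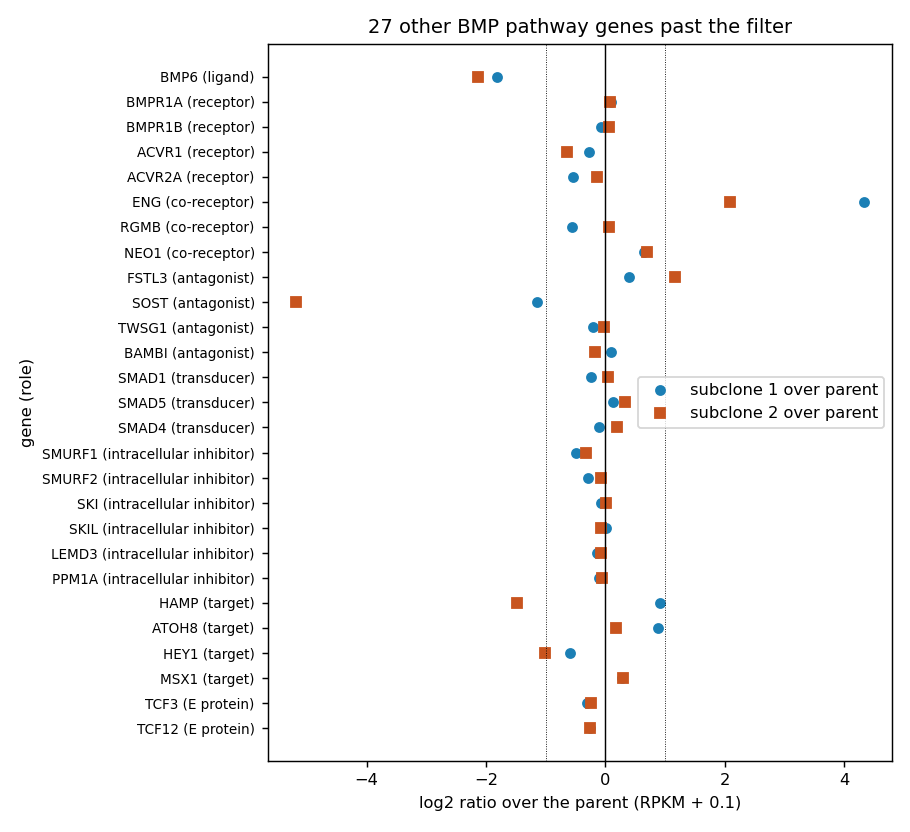
log2 ratio over the parent, on RPKM + 0.1, of the 27 further pathway genes past the filter, with their role, in the lung subclone (circles) and the dual subclone (squares), 1 library each. Dotted lines mark 2-fold. Receptors, transducers and intracellular inhibitors lie between them, and ENG, SOST, BMP6, FSTL3, HAMP and HEY1 reach or pass them in at least 1 subclone.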

How the data were processed

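mRNA of 3 cell lines was sequenced from Trizol-extracted total RNA with an Illumina TruSeq kit, 1 library per line. The authors deposited RPKM values per gene (Entrez number and symbol), listing the genes above 0. The submitters' processing notes name the build hg19, while the aligner, the counting tool, the annotation and the treatment of strand are not given in the sources used here. Reads of antisense genes can therefore not be told apart from those of the named genes. A gene missing from a file was set to 0.

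Ratios were log2 of (RPKM + 0.1) over (RPKM + 0.1), which understates differences of genes at low levels, and folds with intervals are ratios of RPKM without a pseudocount. Background counts used the 11370 of 16149 genes whose RPKM averaged 1 or more. Because RPKM is reads divided by gene length and library total, the total was taken as the whole number that put most of the lowest values (92.5% to 93%) on a whole gene length, and the totals stood in the same proportion as the values of genes with equal reads. Reads of a gene were the smallest whole numbers with a length within 10% of a GENCODE 29 transcript, where the range allowed it. Otherwise the smallest length from 0.5 times the median transcript to 1.5 times the longest was taken, or failing that one near any transcript. A length set too short gives too few reads and too wide an interval. Reads could be set for 98.1% of the 11370 genes and made up 98.1% to 98.2% of the totals. For ID2 the smallest numbers fitted no transcript and were multiplied by 2. This length rule was revised after its first results were seen. The 95% intervals are exact, Poisson for a level and Clopper-Pearson for a ratio, and hold counting error alone. The recovery was also run on simulated libraries, which used the lengths set here, so a wrong length could not show in them. For 2000 genes, the smallest length that gave whole reads was compared with the transcripts. It lay within 10% of a transcript for 80.1% of them. With the totals multiplied by 2 this was 59.1%, and by 0.5 it was 16.85%.

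Genes were named by rule: the 10 genes, the type I receptors, SMAD1, SMAD4, SMAD5, ID4 and the E proteins, other pathway genes past 2-fold and the 3 genes most like the gene with the largest ratio. The antagonists without reads, the targets ATOH8 and MSX1 and the chromosomal neighbours were added after values were seen. The members and lists were chosen with earlier results of these data known. Alternatives were other pseudocounts, scalings, filters and thresholds. Places and sequences came from RefSeq (GRCh38.p14) and GENCODE 29, matched by Entrez number or symbol, and primers from the study's primer list. BMP2 and BMP7 had no promoter entry. The work used Python 3.11.15, numpy 2.4.6, pandas 2.3.3, scipy 1.17.1 and matplotlib 3.10.9.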

Additional observations from a re-analysis of the deposited data

Results flagged for a closer look

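For 7 of the genes named by the rule given above, the log2 ratio over the parent had opposite signs in the 2 subclones. Each subclone has 1 library, so these differences were not tested between cell lines. BMP2 was at -0.14 in subclone 1 and 0.81 in subclone 2, and subclone 2 over subclone 1 was 0.96. BMPR2 was at 0.27 and -0.18, with -0.45 between the subclones. BMP7 was at 0.49 and -0.28, with -0.77 between the subclones from 8 and 4 reads. BMPR1B was at -0.08 and 0.06, with 0.14 between the subclones. SMAD1 was at -0.25 and 0.04, with 0.29 between the subclones. SMAD4 was at -0.11 and 0.20, with 0.31 between the subclones. HAMP was at 0.92 and -1.48, with -2.40 between the subclones from 6 reads and 1 read. Of these, the counting interval of the ratio between the subclones excluded 1 for BMP2, BMPR2 and SMAD4. No gene of the 7 had intervals that excluded 1 for both ratios over the parent. For BMP2 this held in subclone 2 alone, for BMPR2 in subclone 1 alone and for SMAD4 in neither.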

How the results depend on the processing

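Under 7 alternatives of pseudocount and scaling, 185 of 189 log2 ratios of the 10 genes (27 ratios, GREM1 left out) moved by less than their counting error, and no ratio beyond that error changed sign. BMP4 over the parent ranged from -1.74 to -1.46 (subclone 1) and -0.87 to -0.77 (subclone 2), and BMP2 in subclone 2 over the parent from 0.77 to 0.87. The 4 exceptions came from housekeeping genes. Division by ACTB moved the median of all genes by -0.13 for subclone 1 over the parent and by 0.12 for subclone 2 over subclone 1, and division by GAPDH moved the latter by 0.12. With ACTB, subclone 1 over the parent was 0.16 for ID1 and -0.094 for ID3, and subclone 2 over subclone 1 was 0.18 for ID1, against 0.17 with GAPDH. Under either, 1 of the 10 genes, BMP2, passed 2-fold between the subclones. Beside it, 214 of all genes past the filter were as much higher with ACTB and 213 with GAPDH, against 161 as reported. With ACTB the share of higher genes among all genes past 2-fold went from 72.9% to 57.0% for subclone 1 over the parent and from 50.5% to 64.7% for subclone 2 over subclone 1, and with GAPDH the latter was 63.4%.

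At 1.5-fold, the 8 of the 10 genes past the filter gave 1 higher and 1 lower in subclone 1 over the parent (11.6% and 7.46% of all genes), 1 higher and 1 lower in subclone 2 over the parent (12.7% and 7.3%), and 2 higher and 0 lower between the subclones (4.75% and 4.11%). The 27 further pathway genes gave 4 higher and 2 lower, 3 higher and 5 lower, and 2 higher and 4 lower in the same order. With no filter and at 2-fold, the 47 listed pathway genes gave 2 higher and 7 lower in subclone 1 over the parent. They gave 4 higher and 8 lower in subclone 2 over the parent, and 1 higher and 3 lower between the subclones. Beside these stand 1523 and 884, 1553 and 941, and 842 and 902 of all 16149 genes, since genes with few reads then count. At 2-fold with a pseudocount of 1, the 27 gave 2 lower in subclone 2 over the parent, beside 150 of the 11370 genes. Over all genes, the counts of higher and lower genes in subclone 1 over the parent were 557 and 207 as reported, 347 and 117 with a pseudocount of 1, 1523 and 884 with no filter, 233 and 71 at a mean RPKM of at least 5 and 1317 and 848 at 1.5-fold, and ACTB gave 434 and 328. In subclone 2 over the parent these were 606 and 246, 380 and 150, 1553 and 941, 253 and 93, and 1444 and 830. Between the subclones they were 161 and 158, 80 and 77, 842 and 902, 43 and 46, and 540 and 467.

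No paired analysis was possible because each line has 1 library, so no library was left out. Depth limits BMP7, GREM1 and HAMP, which had at most 8 reads in any library.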
